A study of Mus musculus with 12 samples.

Results

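Cavin2, formerly Sdpr, encodes a protein of the coat of caveolae, and this account follows its transcript through a time course of the growth factor BMP6. It is 1 of the 8267 genes that the arrays name with a single symbol, and it is read from 1 probe. It was chosen for its fall after 4 h of BMP6 in these same 12 arrays, so its own values are given below as a description, with no test, and tests are kept for other genes.

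The cells are MECs, a mouse line of intraembryonic endothelial cells. There were 4 groups of 3 arrays: mock-treated controls, to which the labels give no time, and cells given BMP6 for 4, 12 or 24 h, each group described as independent biological triplicates of this 1 line. No dose of BMP6 is given in the sources used here. Every array set Cy5-labelled RNA of the cells against Cy3-labelled universal mouse reference RNA. Values are log ratios, read here as log2 of the cells' signal over that of the reference. The sources used here give no log base and no direction, and with the opposite direction every fall below would be a rise.

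Caveolae are small flask-shaped pits of the plasma membrane that are abundant in endothelial, fat and muscle cells. Caveolins (Cav1 and Cav2, with Cav3 in muscle) sit in the membrane, and cavins assemble on them from the cytosol into a striated coat: Cavin1 is the obligatory component, while Cavin2, Cavin3 and the muscle member Cavin4 join it in a tissue-dependent way. Cavin2 binds phosphatidylserine and was first described as a phosphatidylserine-binding substrate of protein kinase C and as a transcript that rises when cells are deprived of serum. The pits buffer membrane tension, carry out endocytosis and transcytosis in endothelium, and hold signalling proteins, among them endothelial nitric oxide synthase and BMP receptors.

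The stretch before the start site is shown because the values below concern the amount of this transcript. Its sequence, of 250 bases from RefSeq's GRCm38.p6 annotation, lies on the plus strand at chr1:51288876-51289125 and ends just before the annotated start of Cavin2. Capitals mark a CCAAT box.

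Cavin2 promoter: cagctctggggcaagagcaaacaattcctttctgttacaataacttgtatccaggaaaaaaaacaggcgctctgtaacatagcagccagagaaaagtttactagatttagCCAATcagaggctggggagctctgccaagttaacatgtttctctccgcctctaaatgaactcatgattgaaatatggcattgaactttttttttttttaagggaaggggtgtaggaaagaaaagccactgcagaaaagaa

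The CCAAT box, a common promoter element, lay 140 to 136 bases before the start on the plus strand. Searched on both strands, it occurred in 33.8% of 32851 promoter windows of this length. The window held no GTCT, the core of the Smad binding element, which 82.9% of the windows had. It also held no GGCGCC (in 9.59% of windows), the GC-rich element that BMP-activated Smads can bind. The E-box CANNTG, the AP-1 site TGANTCA, the forkhead site GTAAACA, the TATA box TATAAA and the CArG box of serum response factor had no match either, against 66.2%, 6.75%, 3.17%, 12.4% and 1.47% of windows. A missing match says only that these letters are not in this window.

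Cavin2 was highest in control cells, lowest after 4 h of BMP6, and part of the way back after 12 and 24 h. In the control cultures its log2 ratio to the reference was 0.22, 0.12 and 0.47 in replicates 1, 2 and 3. After 4 h it was -0.73, -1.27 and -1.03. After 12 h it was -0.28, -0.39 and -0.30. After 24 h it was -0.16, -0.14 and -0.07. All 9 treated arrays lay below all 3 controls, and no group overlapped another. Of all 8267 genes, 3 had 4 separate groups in this order (control, 24 h, 12 h, 4 h, from high to low): Cavin2, the atypical protein kinase C gene Prkci and the sorting nexin gene Snx13, the last named after its values were seen. The order was taken from the values of Cavin2, which therefore meets it by construction, so nothing is read from this count.

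**Figure D1:**
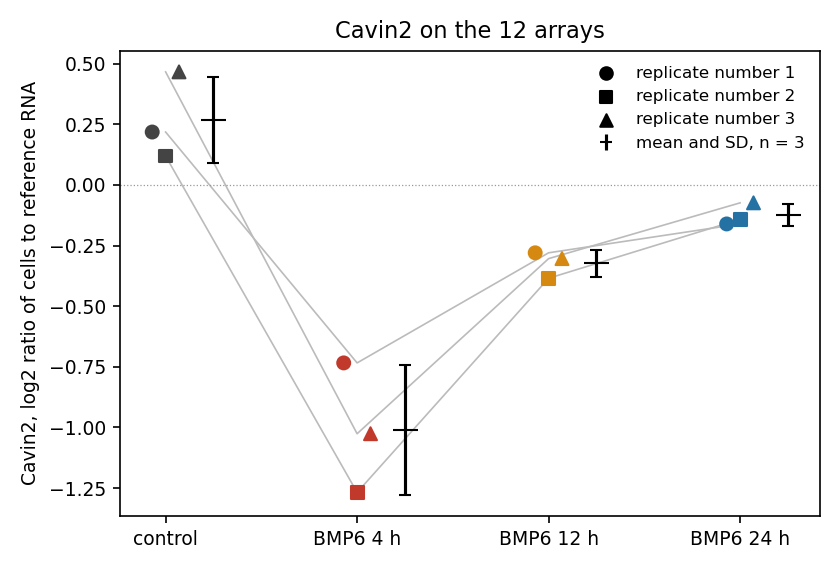
Log2 ratio of Cavin2 to the reference RNA on each of the 12 arrays (points, shape by replicate number, thin lines joining arrays of the same number), with the mean and SD of each group of 3 beside them. The 4 h arrays lie between -1.27 and -0.73, below every array of the other groups, and the 12 h and 24 h arrays lie between the 4 h arrays and the controls.

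The group means were 0.27 ± 0.18 in controls, -1.01 ± 0.27 at 4 h, -0.32 ± 0.06 at 12 h and -0.13 ± 0.05 at 24 h (SD, n = 3 each). In the order of levels, every neighbouring pair of groups was separated, although 12 h and 24 h by only 0.12 between their nearest arrays. The spread between replicates was widest at 4 h and narrowest at 24 h.

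At 4 h the mean Cavin2 ratio was 41.3% of the control ratio (2.42 times the control if the ratio runs the other way), a difference of -1.28 on the log2 scale. These shares also take the log base as 2. The SE of the difference was 0.125 in a fit without the replicate number, the one used below for Cavin2, and 0.102 with that number as a block. Each fit shares its estimate of spread among all groups, so its SE was the same in every Cavin2 comparison. The 3 same-numbered pairs of arrays differed by -0.95, -1.39 and -1.49, so the smallest fall was seen in replicate number 1. Among the 8267 genes only Adamts5, which encodes an aggrecan-cleaving metalloprotease, had a lower difference (-1.35), and the next after Cavin2 was Sema3a, a secreted guidance factor (-0.91). The groups did not overlap, as was the case in the lower direction for 4.31% of all features, and in the higher direction for 3.27%. Cavin2 was chosen on this comparison, and nothing is read from that share.

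At 12 h the difference from control was -0.59 (SE 0.125), or 66.4% of the control ratio (1.51 times with the ratio turned), and the pairs differed by -0.50, -0.50 and -0.77. At 24 h it was -0.39 (SE 0.125), or 76.1% of control (1.31 times with the ratio turned), with pairs at -0.38, -0.26 and -0.54. These differences were 46.3% and 30.8% of the difference at 4 h. The 3 comparisons share the same control arrays, so an error in the controls moves them together. Groups that did not overlap in the lower direction were found for 3.02% of features at 12 h and 2.09% at 24 h.

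Between the treated groups, which share no arrays with the controls, Cavin2 was higher by 0.69 at 12 h than at 4 h (SE 0.125), by 0.88 at 24 h than at 4 h and by 0.20 at 24 h than at 12 h. None of these pairs of groups overlapped, as was so in that direction for 3.61%, 4.59% and 2.2% of all features. Each of the 3 pairs was higher at the later time: by 0.45, 0.88 and 0.72 for 12 h over 4 h, and by 0.12, 0.24 and 0.23 for 24 h over 12 h. In these arrays most of the return lay before 12 h. In the 12 h over 4 h and the 24 h over 4 h comparisons Cavin2 ranked 2 from the highest among the 8267 genes. Both comparisons reuse the 4 h arrays on which Cavin2 was chosen. That choice favours large rises from 4 h, so nothing is read from these ranks or from the size of the early return.

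**Figure D2:**
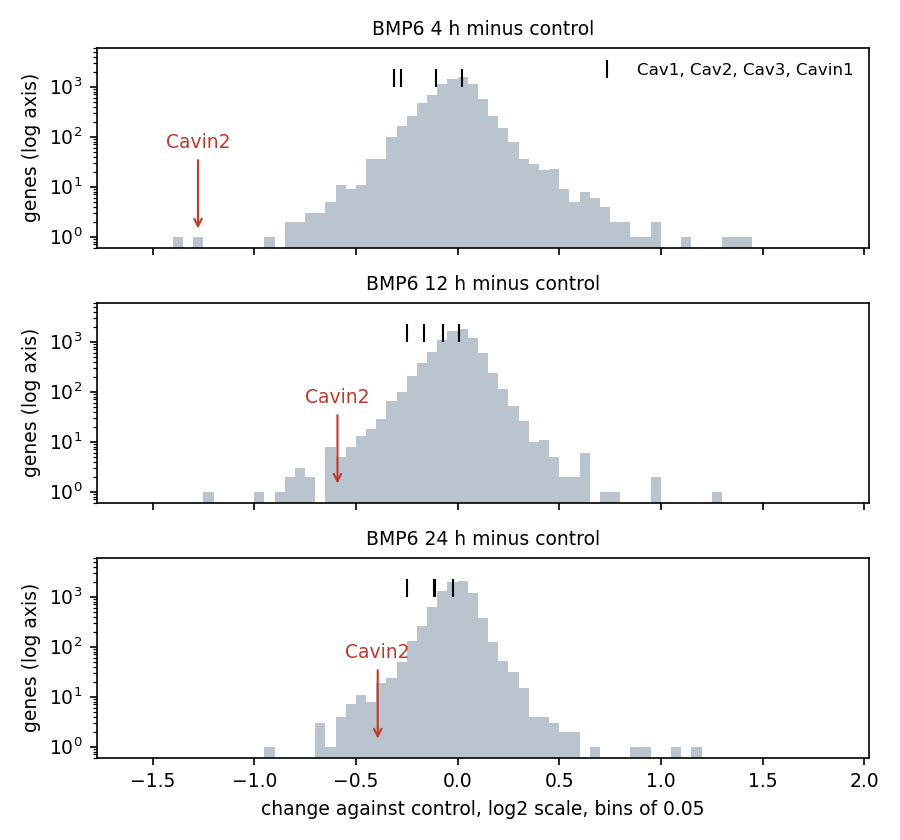
Number of genes (log axis) by log2 change against control at 4, 12 and 24 h, for 8267 genes in bins of 0.05, with arrows at Cavin2 and ticks at Cav1, Cav2, Cav3 and Cavin1. Cavin2 lies at -1.28, -0.59 and -0.39, at the far left at 4 h and nearer to the bulk later, while the other coat genes lie between -0.31 and 0.02.

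The 12 values of Cavin2 differed mostly by treatment group. The 4 groups held 92.2% of its sum of squares, the replicate numbers 3.18%, and 4.62% was left, against medians of 18.9%, 51.2% and 22.7% over all genes. The groups' share of Cavin2 ranked 8 from the highest of the 8267 genes. A gene chosen for a large fall at 4 h is favoured in this share, so nothing is read from its rank. For most genes the replicate number in the sample titles was the larger source of differences: same-numbered arrays of different groups deviated from their group means together, with correlations from 0.443 to 0.695 over 18 pairs of arrays. For tested genes, calls are therefore given from a limma fit without the replicate number (unpaired) and from one with it as a block (paired). Among the tested genes of the lists below, only Prkcd at 4 h was called in the unpaired fit. A paired adjusted p printed alone thus belongs to a comparison that was not called unpaired. Both adjust over 17971 features with the Benjamini-Hochberg method.

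The other coat genes showed smaller differences from control, and none of the 4 measured was called in either fit at any time. At 4 h, 0.0668% of features were called in the unpaired fit (0.0612% higher, 0.00556% lower) and 2.37% in the paired fit (1.0% higher, 1.37% lower). At 12 h the shares were 0.0% and 0.523% (0.128% higher, 0.395% lower). At 24 h they were 0.0% and 0.0223% (0.0167% higher, 0.00556% lower). In the unpaired fit 577 and 364 of 17971 features had an unadjusted limma p under 0.05 at 12 and 24 h. That is a share under 0.05 at both times, so nothing is read from these counts. The median difference of the 4 genes was -0.19 at 4 h, -0.12 at 12 h and -0.12 at 24 h, against 0.01 over all features at each time. Cavin3 and Cavin4 were not analysed here.

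Cavin1, the cavin without which caveolae do not form, had log2 ratios of 1.09, 0.47 and 0.90 in controls and 1.0, 0.20 and 0.33 after 4 h of BMP6. The ranges overlapped, although each of the 3 pairs was lower at 4 h. The mean difference was -0.31 (paired SE 0.091, paired adjusted p 0.117). At 12 and 24 h it was -0.25 and -0.11.

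Cav2, the caveolin that assembles with Cav1, stood at 0.73, 0.44 and 0.78 in controls and at 0.67, 0.17 and 0.26 after 4 h. The groups overlapped, and the 4 h array was the lower in each pair. The mean difference was -0.28 (paired SE 0.077, paired adjusted p 0.1), and it was -0.07 at 12 h and -0.12 at 24 h.

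Cav1, the main structural caveolin of endothelium, was read from 2 probes. Its ratios were 0.25, -0.11 and -0.10 in controls, 0.27, -0.26 and -0.30 at 4 h, and -0.17, -0.26 and -0.27 at 24 h. Its difference was -0.11 at 4 h, -0.16 at 12 h and -0.25 at 24 h (paired adjusted p 0.602, 0.499 and 0.56), an order of times unlike that of Cavin2. The muscle caveolin Cav3 stayed between -1.62 and -1.38 on all 12 arrays, and its differences were 0.02, 0.01 and -0.02.

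**Figure D3:**
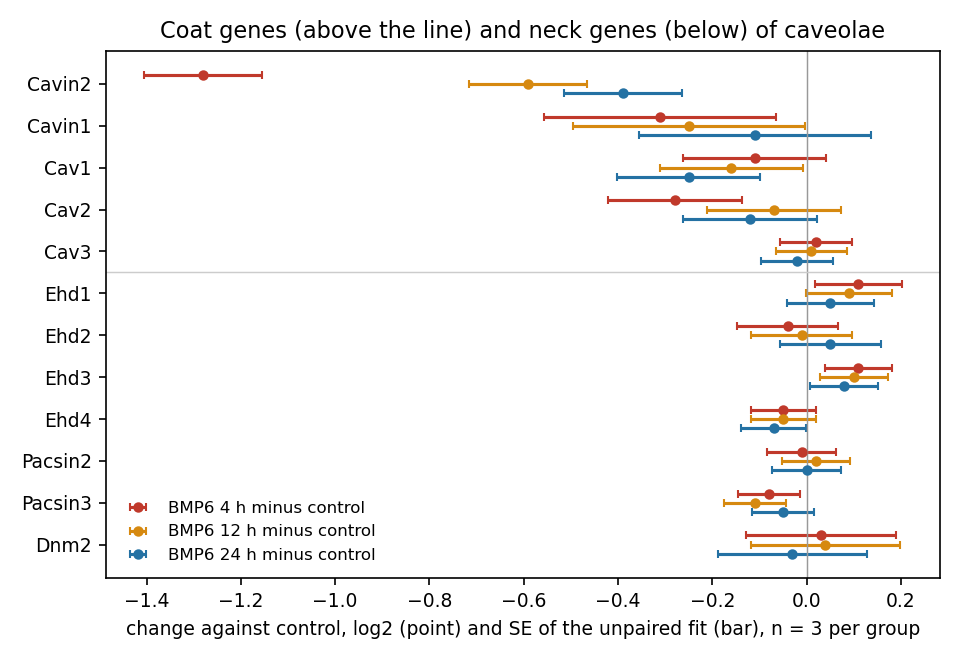
Log2 change against control (points) with the SE of the unpaired fit (bars, n = 3 per group) at 4, 12 and 24 h for the 5 coat genes and 7 neck genes of caveolae that were measured. Cavin2 lies at -1.28, -0.59 and -0.39, and the points of the other genes lie between -0.31 and 0.11.

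In Cavin1, Cav1 and Cav2 the arrays differed more by replicate number than by group. The replicate numbers held 76.6%, 61.6% and 55.9% of their sums of squares, and the groups 15.2%, 21.9% and 29.6%. With the mean of each replicate number taken out, Cav2 and Cavin1 followed Cavin2 over the 12 arrays with Pearson r of 0.870 and 0.840, while Cav1 had 0.275 and Cav3 -0.299. These correlations are descriptions of genes read from the same 12 hybridizations, and Cav2 and Cavin1 moved over a much smaller range than Cavin2.

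**Figure D4:**
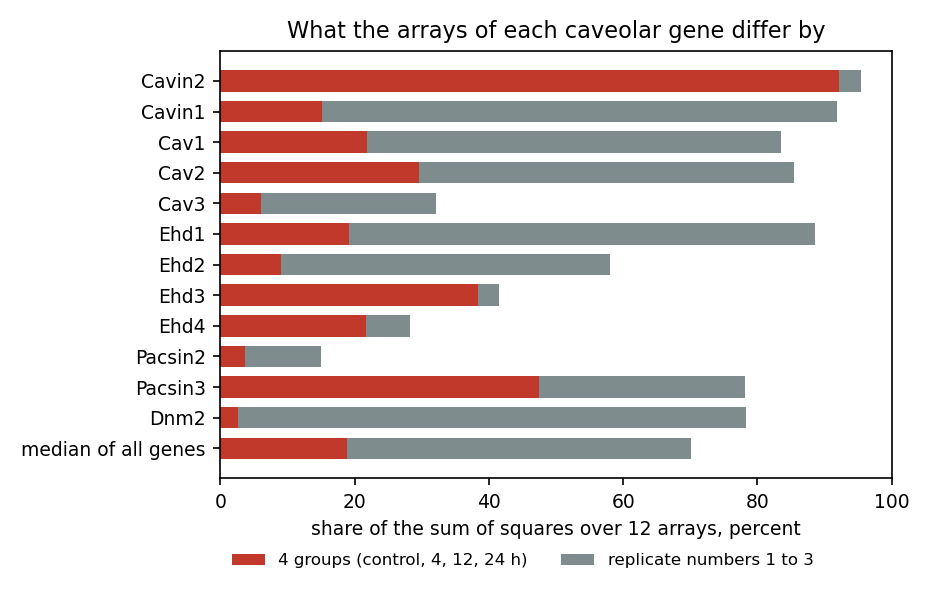
Share of the sum of squares over the 12 arrays (percent) that lay between the 4 groups (red) and between replicate numbers 1 to 3 (grey) for the 12 measured genes of the caveolar coat and neck, with the median over 8267 genes. Cavin2, whose choice by its fall favours a high share, has 92.2% between groups, against 15.2% for Cavin1 and 21.9% for Cav1.

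The genes that shape the neck of the pit were close to control throughout. Among 7 measured of 10, none was called in either fit at any time, and their median differences were -0.01, 0.02 and 0.00 at 4, 12 and 24 h. The EH-domain ATPase Ehd2, which anchors caveolae at the surface, differed by -0.04, -0.01 and 0.05. Its relatives Ehd1, Ehd3 and Ehd4 differed at 4 h by 0.11, 0.11 and -0.05. Pacsin2, which bends the membrane of the neck, differed by -0.01 at 4 h, its relative Pacsin3 by -0.08, and Dnm2, the dynamin that can cut the neck, by 0.03.

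Flotillins mark cholesterol-rich rafts that are distinct from caveolae. Flot1 had ratios of 0.25, 0.35 and 0.43 in controls, 0.03, -0.21 and -0.02 at 4 h, and -0.17, -0.11 and 0.14 at 12 h. At 24 h it stood at 0.22, 0.18 and 0.42, lower than the control in each of the 3 pairs, with overlapping groups and a mean difference of -0.07 (paired adjusted p 0.851). The 4 h and 12 h arrays lay below all controls. Flot1 fell in the paired fit at 4 h by 0.41 on the log2 scale (adjusted p 0.0201, unpaired 0.287), the single call among 4 measured raft genes. The call was lost on leaving out control array 2 (0.108) or 3 (0.0531), and likewise 4 h array 2 (0.105) or 3 (0.108). At 12 h its difference was -0.39 (paired adjusted p 0.0609). Its partner Flot2 differed by -0.23 at 4 h and was not called.

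Of 12 genes tied to endothelial functions of caveolae, 6 were measured and none was called in either fit at any time. The nitric oxide synthase regulators Nostrin and Nosip differed by 0.06 and 0.01 at 4 h, and the largest difference at that time was -0.17, for the water channel gene Aqp1. The synthase gene itself, Nos3, and the diaphragm gene Plvap were not analysed here. Among 5 measured genes of phosphatidylserine synthesis and transport, none was called, and the 4 h differences ran from -0.03 to 0.37.

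In the protein kinase C and D list, 11 of 14 genes were measured. At 4 h Prkcd, which encodes protein kinase C delta, rose by 0.48 in both fits (adjusted p 0.0439 unpaired, 0.00514 paired). Its ratios went from 0.06, 0.03 and 0.13 to 0.53, 0.61 and 0.55, without overlap. It stood at 0.19, 0.11 and 0.10 after 24 h. The paired call passed without each single array in turn, and was lost without the 4 arrays of replicate number 2 (0.182) or 3 (0.101). The unpaired call missed the threshold on arrays centred on their median (0.0575). It was also lost on leaving out any single control array (0.141, 0.227 and 0.0561 for numbers 1 to 3), any 4 h array (0.0685, 0.315 and 0.218), any 24 h array (0.0732, 0.087 and 0.0825) or 12 h array 3 (0.0746).

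Prkd1 and Prkci of that list fell at 4 h in the paired fit. Prkd1, protein kinase D1, fell by 0.58 on the log2 scale (adjusted p 0.00752 paired, 0.259 unpaired), and its arrays went from 1.43, 1.04 and 1.38 to 0.93, 0.53 and 0.66. This call too was lost without the arrays of replicate number 2 (0.182) or 3 (0.136). Prkci, protein kinase C iota, fell by 0.31 (adjusted p 0.0207 paired, 0.208 unpaired), with ratios of 0.67, 0.64 and 0.86 in controls, 0.45, 0.35 and 0.43 at 4 h, 0.53, 0.54 and 0.55 at 12 h, and 0.58, 0.56 and 0.58 at 24 h. Prkci thus had the same order of groups as Cavin2 over a smaller range. Its paired call was lost on leaving out control array 2 (0.0662) and on leaving out 4 h array 2 (0.101) or 3 (0.0983). Prkca, for the kinase isoform whose substrate Cavin2 is, was not analysed here.

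Growth arrest genes are transcripts that, like Cavin2, are known to be high in quiescent or serum-starved cells. This list was drawn up with the results of these arrays known, so its direction is not independent evidence. Of 11 measured members, 4 fell and 0 rose in the paired fit at 4 h, where 1.37% of all features fell and 1.0% rose. In the unpaired fit 0 members were called. The median difference was -0.20 at 4 h, -0.18 at 12 h and -0.15 at 24 h, against 0.01 over all features at each time. The myelin and growth arrest gene Pmp22 fell by 0.69 (paired adjusted p 0.00148), the retinoblastoma relative Rbl2 by 0.67 (0.00363), the stress-induced Sesn1 by 0.60 (0.00568) and the membrane-anchored Gas1 by 0.57 (0.00306). These 4 paired calls passed without each single array in turn. All 4 were lost without the 4 arrays of replicate number 2 (adjusted p 0.129, 0.177, 0.198 and 0.0667 for Pmp22, Rbl2, Sesn1 and Gas1) and without those of number 3 (0.0855, 0.0727, 0.135 and 0.111).

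After 4 h, Pmp22, Rbl2 and Sesn1 lay at -0.37, -0.34 and -0.35 at 12 h and at -0.19, -0.16 and -0.15 at 24 h. By array, Pmp22 stood at 0.17, 0.16 and 0.43 in controls, -0.32, -0.65 and -0.36 at 4 h, -0.08, -0.31 and 0.02 at 12 h and 0.14, -0.10 and 0.13 at 24 h. Gas1 differed by -0.61 at 12 h and -0.56 at 24 h, and its course was not tested against those of the other 3. Its paired adjusted p was 0.00658 at 12 h, lost without 12 h replicate 2 (0.0623), and 0.0285 at 24 h. The 24 h call was lost on leaving out any single control array (0.157, 0.101 and 0.105 for numbers 1 to 3), any 24 h array (0.12, 0.235 and 0.243) or 12 h array 2 (0.074) or 3 (0.0542). The 12 h difference of Pmp22 was -0.37 (paired adjusted p 0.0489), a call lost in 11 of 12 fits with 1 array left out, with an adjusted p of up to 0.25.

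Of the clathrin pathway, the other main route of uptake at the membrane, 13 of 16 genes were measured. The median difference was -0.02 at 4 h and the single call was a rise of Snx9, a membrane-bending partner of dynamin, by 0.32 in the paired fit (adjusted p 0.0303, unpaired 0.567). It was lost in 8 of 12 fits with 1 array left out, with an adjusted p of up to 0.141. The clathrin heavy chain Cltc and the adaptor subunits were not called.

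Among known BMP targets, the Id genes were higher at all 3 times, while the median difference of the 7 measured was 0.25, 0.11 and 0.06 at 4, 12 and 24 h. Id1, an inhibitor of basic helix-loop-helix factors and a direct BMP target, had ratios of 0.17, 0.37 and 1.07 in controls and 1.07, 1.67 and 1.81 at 4 h. It rose by 0.97 at 4 h, 0.97 at 12 h and 1.07 at 24 h in the paired fit (adjusted p 0.00166, 0.00658 and 0.00639; unpaired 0.322, 0.882 and 1.0). The 12 h call was lost without 12 h replicate 2 (0.0623) and the 24 h call without control array 1 (0.0701), 24 h array 1 (0.0726) or 24 h array 2 (0.08). Of 7 measured BMP targets, 3 rose (Id1, Id2 and Id3) and 0 fell in the paired fit at each time. Of all features, 1.0%, 0.128% and 0.0167% rose in that fit at 4, 12 and 24 h, and 1.37%, 0.395% and 0.00556% fell. Id2 was higher by 0.84, 1.27 and 1.19 and Id3 by 0.64, 0.79 and 0.92 at 4, 12 and 24 h, and neither was called in the unpaired fit at any time. The paired calls of Id2 were lost in 2, 2 and 8 of 12 fits with 1 array left out, and those of Id3 in 0, 1 and 3. Without all arrays of replicate number 2, the 4 h calls of Id1, Id2 and Id3 were lost (0.0667, 0.263 and 0.182). The 4 h call of Id2 was also lost without number 1 (0.0641) or 3 (0.054), and that of Id3 without number 3 (0.0614). At 12 and 24 h, leaving out any replicate number lost the calls of all 3 genes. Acvr1, a type I receptor for BMP6, rose at 4 h by 0.32 (paired adjusted p 0.0117, unpaired 0.151, and paired 0.052 without control replicate 2) as the single call among 10 measured receptors and Smads. Its paired call was also lost without all arrays of replicate number 1, 2 or 3 (0.087, 0.238 and 0.14).

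The genes whose course over the 12 arrays was most like that of Cavin2, after the mean of each replicate number was taken out, were Adamts5 (Pearson r = 0.980), Sema3a (0.977), Pmp22 (0.974), Sesn1 (0.972), Rragc (0.970), Pnp (0.965), Mtif2 (0.965) and Acadm (0.962). The choice fixes their direction, so their values are a description. Rragc encodes a Rag GTPase of nutrient sensing, Pnp purine nucleoside phosphorylase, Mtif2 a mitochondrial translation factor and Acadm an acyl-CoA dehydrogenase of fatty acid oxidation. Of 8266 genes compared, 103 had an r above 0.9. Most of the genes named here left the list with no mean taken out, by Spearman rho or without a replicate number.

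A shared shape is fixed by this choice, which ignores size. Adamts5 differed from control by -1.35, -0.76 and -0.50 at 4, 12 and 24 h, close to Cavin2 at each time. Its SE in the unpaired fit was 0.29, against 0.125 for Cavin2. That SE takes in the differences between replicate numbers, so it does not show how even the falls were within pairs. The Adamts5 arrays ran from 1.73, 1.19 and 1.58 in controls to 0.75, -0.41 and 0.10 at 4 h. Sema3a differed by -0.91, -0.43 and -0.25, and its ratios were 1.24, 1.06 and 1.21 in controls and 0.77, -0.11 and 0.11 at 4 h. As in Cavin2, the 4 h array of replicate number 1 was the highest of the 3 in both genes. That also held in Cavin1, Cav1, Cav2, Prkd1, Gas1 and Armcx2, though not in Id1 or Sema3c, so it was not particular to these genes. Acadm differed by -0.59, -0.31 and -0.14, and Mtif2 by only -0.16, -0.08 and -0.03.

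The most opposite courses belonged to Zfp451 (r = -0.976), a zinc finger gene, Acsl4 (-0.970), an acyl-CoA synthetase for arachidonic acid, Klhl26 (-0.966) and the growth factor gene Fgf2 (-0.965). Fgf2 was higher by 0.62 at 4 h, 0.21 at 12 h and 0.15 at 24 h, and Acsl4 by 0.36, 0.14 and 0.17.

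**Figure D5:**
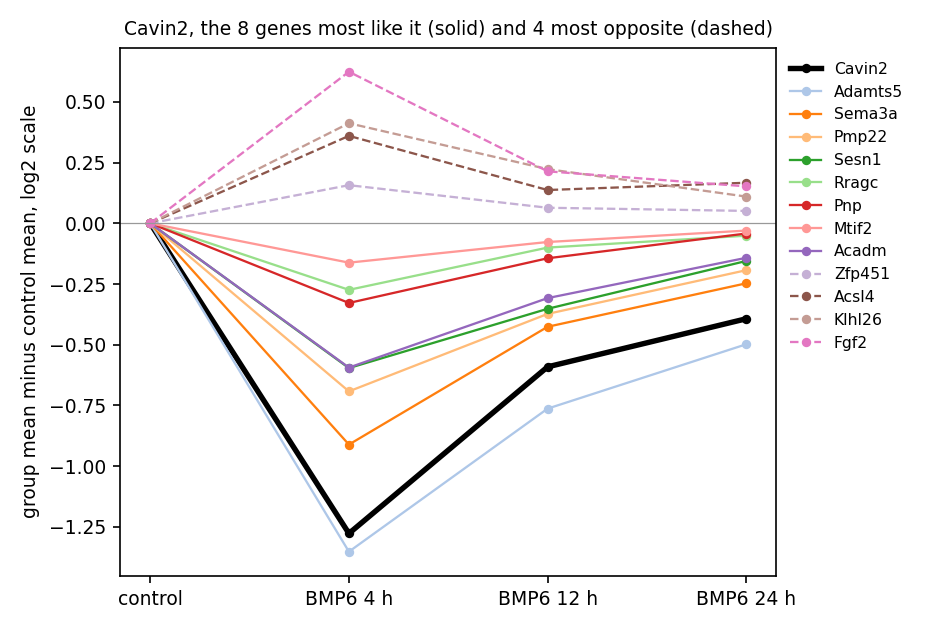
Group mean minus control mean (log2 scale) in the 4 groups for Cavin2 (thick line), the 8 genes most like it (solid) and the 4 most opposite (dashed). Cavin2 and Adamts5 reach -1.28 and -1.35 at 4 h, the other like genes lie between -0.91 and -0.16, and all 8 lie nearer to control at 24 h than at 4 h.

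Sema3c, Adamts1 and Armcx2 were also low at 4 h. The semaphorin gene Sema3c differed by -0.62, -0.64 and -0.54 at 4, 12 and 24 h, and the metalloprotease gene Adamts1 by -0.81, -0.62 and -0.42. Armcx2, of the armadillo repeat family, differed by -0.84, -0.50 and -0.08. The difference between these courses and that of Cavin2 was not tested.

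The 3 nearest named genes on either side of Cavin2 in the RefSeq order on chromosome 1 were Slc40a1, Dnah7c and Slc39a10 before it and Nabp1, Stat4 and Nab1 after it. Those before it were 5360, 4480 and 4360 kb away, and those after it 162, 684 and 1150 kb. At 4 h Slc39a10, a zinc transporter gene, fell by 0.52 (paired adjusted p 0.0117, unpaired 0.151). Without the arrays of replicate number 2 the paired fit called 0 features at 4 h, so this call was lost there. The other 5 genes differed by -0.07 to 0.18 at 4 h and were not called in either fit.

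The labelled cell type could not be settled from its markers, because a ratio to a mixed reference does not show whether a gene is expressed. Of 13 endothelial markers, 5 were measured, all below the reference. Pecam1 stood at -1.42 ± 0.24, Cdh5 at -1.62 ± 0.08 and Kdr at -1.25 ± 0.22 in controls (SD, n = 3), and none was called at any time. The mean of the 5 was -1.06 to -1.01 over the control arrays and -1.12 to -1.0 over the 4 h arrays. The 4 measured fibroblast markers had means of 0.11 to 0.59 in controls and -0.16 to 0.39 at 4 h, and 1 of them, Prrx1, fell in the paired fit at 4 h by 0.49 (adjusted p 0.0171). That call was lost on leaving out control array 2 (0.0961), 4 h array 2 (0.0893) or 4 h array 3 (0.0708). At 12 h Prrx1 fell by 0.50 (paired adjusted p 0.0429), a call lost in 10 of 12 such fits, with an adjusted p of up to 0.238. The part of these markers in the level of Cavin2 was not tested. In such bulk samples, fewer cells of a type and less RNA per cell cannot be told apart. The single measured marker of fat cells, Fabp4, lay between -3.85 and -3.38 on all arrays. Of 6 smooth muscle markers, 1 (Cnn1) rose in the paired fit at 4 h, by 0.25 (adjusted p 0.0316). That call was lost in 11 of 12 fits with 1 array left out, with an adjusted p of up to 0.148. The 2 blood and 6 epithelial markers had no call.

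The name Cavin2 rests on a reading of the array grid that was inferred from agreement between probes of the same gene. In that reading the first 2 probes of a gene correlated with r = 0.471 over 1831 genes, against 0.021 at the deposited row numbers. The 7 positions with a value around that of Cavin2 in the grid had differences at 4 h from -0.66 to 0.00, with a median of -0.12. No second probe of Cavin2 was available as a check.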

How the data were processed

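The deposited values are log ratios, taken as log2, that the authors normalized with a modified quantile procedure after GenePix quantification, per the labels. They cover 20280 rows on 12 arrays, with no missing value, array SDs of 0.607 to 0.688 and correlations between arrays of 0.877 to 0.98. No intensities were used, so detection is not stated, and precision is limited by having 3 arrays a group. Genes were named with GEO's platform annotation (10576 probes with 1 symbol; 507 with several were not named), with symbols updated through RefSeq for 10548 probes, on a reordered grid. Probes of a gene were averaged, and rows without a single symbol were kept as features of their own, giving 17971 features.

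limma 3.58.1 in R 4.3.3 (lmFit, eBayes, two-sided) was fitted to all 12 arrays, with a threshold of 0.05 on Benjamini-Hochberg adjusted p. The unpaired fit, the one reported first, had no block, as the equal-variance t-test of the study's methods had none. Replicate numbers pair the samples: all 18 correlations of deviations were above 0.1 (0.443 to 0.695, others -0.564 to 0.069), on the numbers in the titles alone. Fits were tested on simulated data. Cavin2, the gene lists and the tests were chosen with earlier results of these data known. Genes named were all measured coat and neck members, at most 4 called members of each other list, Pecam1, Cdh5, Kdr, the 8 most and 4 least like Cavin2, 3 chromosome neighbours a side, genes lower at 4 h, and Sema3a, Sema3c, Adamts1, Adamts5 and Armcx2 from earlier results. Flot2, Nostrin, Nosip, Aqp1, Cltc, Fabp4 and Snx13 were named outside that rule, after their values were seen.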

Additional observations from a re-analysis of the deposited data

How the results depend on the processing

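The 6 Cavin2 differences kept their sign and stayed within 1 SD on leaving out any array or replicate number: -1.44 to -1.15 at 4 h, -0.67 to -0.49 at 12 h, -0.47 to -0.29 at 24 h, and 0.56 to 0.82, 0.75 to 1.04 and 0.17 to 0.24 for 12 over 4 h, 24 over 4 h and 24 over 12 h. With the block as well, the last was 0.127 without 24 h replicate 2 and 0.260 without 24 h replicate 1, more than 1 SD away. Without the block, leaving out 1 of 3 arrays moves a group mean by only part of its SD. Staying within 1 SD was thus close to fixed in advance. With names given in the deposited row order the 6 differences became -0.013, 0.065, 0.015, 0.078, 0.027 and -0.051, since another row is then read. Cavin2 has 1 probe, so no single-probe alternative could be run. Features called at 4 h numbered 12 in the unpaired fit, 426 with the replicate block, 20 with every probe row as its own feature, 0 with only the compared groups, and 0 after adjustment of the methods' t-test (767 unadjusted). Leaving out arrays gave 0 to 18 unpaired and 0 to 592 with the block. At 12 h the block called 94 (0 to 104), quantile normalization 1 and the unadjusted t-test 519. At 24 h the block called 4 (0 to 6) and the unadjusted t-test 341. Of 102 measured list members, 1 was called at 4 h unpaired, 15 with the block (0 to 17), 0 on centred arrays, 0 with only the compared groups, and 0 by the t-test adjusted (16 unadjusted). The block called 6 at 12 h (0 to 6) and 4 at 24 h (0 to 4), and the unadjusted t-test 11 and 6. Blocked fits with arrays left out were added after seeing the data. Without all arrays of replicate number 1, 2 or 3, the block called 213, 0 and 29 features at 4 h, and 9, 0 and 2 of the list members. Of the 8 genes most like Cavin2, 3 were among the 8 with no mean taken out, 1 by Spearman rho, and 1 to 3 without a replicate number.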
